A study of Homo sapiens with 26 samples.

Results

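PAQR8 and 8 related genes are described here in cultured and xenografted KELLY neuroblastoma cells. The 9 genes, PAQR3 to PAQR9 together with ADIPOR1 and ADIPOR2, were taken by symbol from the 26485 genes of the expression tables. All 9 were in both tables and passed the filter on low counts in both. They were chosen by the culture values of PAQR8, which fell with both hairpins, and so the culture values of PAQR8 are a description and carry no test.

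KELLY is an established human neuroblastoma cell line with an amplified MYCN gene. Its derivatives carried a lentiviral vector that makes a short hairpin RNA when doxycycline is added. The EV line held the vector without a hairpin, and the sh4 and shAMB lines held hairpins against RUNX1T1, a transcriptional co-repressor. Each line received DMSO, the solvent control, or doxycycline for 72 h, with 3 libraries per group and 18 in all. The other 8 libraries were from KELLY tumours in immunodeficient mice, 4 on control food with the genotype label WT and 4 on doxycycline food with the label RUNX1T1 KO. The age given for the mice, 5 to 6 weeks, is in the study's text the age at engraftment. The labels do not name the hairpin of the tumour cells, which the study's text describes as the one built on an Ambion siRNA sequence. Nothing says that the libraries of a group came from separate cultures, so the p-values measure the spread between these libraries, which may be technical.

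RUNX1T1 RNA was read first as a check of the labels. It stood at 34.3 ± 0.898 CPM (read count scaled to library size, mean ± SD, n = 3) in sh4 with DMSO and 31.8 ± 1.94 with doxycycline, and at 40.9 ± 1.04 and 42.5 ± 1.41 in shAMB. Tumours held 35.5 ± 5.51 CPM on control food and 30.2 ± 5.19 on doxycycline food (n = 4). None of these 3 contrasts passed the edgeR test (adjusted p = 0.117, 0.378 and 0.229). Set against EV, the shAMB effect was higher (log2 difference 0.21, adjusted p = 0.0353), with EV itself at -0.16 (adjusted p = 0.672) and shAMB at 0.06. Before induction sh4 was lower than EV (-0.29, adjusted p = 0.0144). The directions below therefore rest on the labels and not on this RNA. The study's text reports less RUNX1T1 protein in KELLY cells with its hairpins after 72 h of doxycycline. It also reports loss of the protein by immunostaining in KELLY tumours. Protein was not measured in these libraries. Depth was 35115915 to 54736733 counts per library in culture and 47346063 to 62378060 in the tumours. All 8 sympathetic neuroblastoma markers were detected in every group, with sums of 1643 to 3364 CPM. The 10 genes listed for host stroma summed to 62.1 to 85.4 CPM in sh4 with doxycycline and 36.6 to 48.3 in sh4 with DMSO. The sums were 35.5 to 49.4 in the other culture groups and 14.6 to 29.4 in the tumours, and HBB was at 0 throughout. The cultured lines held no host tissue, so there the sums do not measure host stroma. COL3A1 went from 24.6 to 38.2 CPM in sh4 and from 33.7 to 14.3 in shAMB, and VWF from 0.823 to 4.46 and from 0.660 to 5.67. The part of these genes in the results was not tested. In bulk samples, fewer cells of a type and less RNA per cell cannot be told apart.

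PAQR proteins (progestin and adipoQ receptors) cross the membrane several times, as G protein-coupled receptors do, but many have the opposite orientation. ADIPOR1 and ADIPOR2 bind adiponectin, the hormone of fat cells, and act on ceramide, on the energy sensor AMPK, on the fat oxidation regulator PPARA and on membrane fluidity. PAQR5 to PAQR9 encode the membrane progesterone receptors, which respond to progesterone and neurosteroids at the cell surface, and PAQR8 (mPR beta) is best known from the nervous system. PAQR3 is a Golgi protein that anchors the sterol sensor SCAP. PAQR4 is a less studied member that has been followed mainly in tumours.

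Positions are those of GENCODE 44 on hg38, the build named for the files. PAQR8 is at chr6:52361421-52407777 (plus strand, 2 exons in the reference transcript). The other progesterone receptor genes are PAQR5 at chr15:69298912-69407780 (plus, 9 exons), PAQR6 at chr1:156243320-156248117 (minus, 8), PAQR7 at chr1:25861484-25875708 (minus, 3) and PAQR9 at chr3:142949164-142963674 (minus, 1). ADIPOR1 is at chr1:202940826-202958572 (minus, 8 exons) and ADIPOR2 at chr12:1688574-1788674 (plus, 8). PAQR3 is at chr4:78887127-78939438 (minus, 6 exons) and PAQR4 at chr16:2969270-2973484 (plus, 3). Genes on the opposite strand cover 45.7% of the reference exon bases of PAQR4 (PKMYT1) and 45.7% of those of PAQR3 (BMP2K). The deposited length of PAQR3, 3739 bases, was below the 9811 bases of that transcript, so its overlap in the counting may differ. How strand was used in the counting is not given in the sources used here, so the reads of such pairs may not be separable, and 0% of the deposited PAQR4 values were whole numbers against 100% for the other 8 genes.

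PAQR6 and PAQR9 were the members higher in both shAMB and the tumours on doxycycline food, and their promoters are shown for that reason. RefSeq promoters (GRCh38.p14, 250 bases before to 50 after the start) matched 4 of the 9 genes. The windows at chr1:156248007-156248306 (PAQR6) and chr3:142963625-142963924 (PAQR9, the one at the GENCODE start) are both on the minus strand and are printed 5′ to 3′ along the gene. Capitals mark GGGCGG or, for the other strand, CCGCCC.
PAQR6: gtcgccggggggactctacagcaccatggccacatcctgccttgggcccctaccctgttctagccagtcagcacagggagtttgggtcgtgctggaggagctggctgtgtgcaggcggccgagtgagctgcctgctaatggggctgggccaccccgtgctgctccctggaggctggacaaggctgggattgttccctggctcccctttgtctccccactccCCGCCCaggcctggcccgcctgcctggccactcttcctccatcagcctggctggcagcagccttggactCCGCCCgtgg
PAQR9: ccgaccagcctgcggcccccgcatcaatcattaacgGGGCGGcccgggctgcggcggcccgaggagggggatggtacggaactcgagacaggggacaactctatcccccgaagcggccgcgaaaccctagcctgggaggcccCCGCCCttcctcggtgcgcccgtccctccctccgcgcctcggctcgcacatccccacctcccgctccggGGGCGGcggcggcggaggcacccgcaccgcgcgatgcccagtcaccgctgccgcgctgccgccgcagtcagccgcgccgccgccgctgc
PAQR6 held 2 matches in 67.7% GC and PAQR9 3 in 76.3% GC. Among windows not printed, PAQR4 held 3 matches. ADIPOR1 held 3 in the window at chr1:202958347-202958646 and 0 in that at chr1:202957935-202958234. PAQR4 and ADIPOR1 were both lower in the tumours on doxycycline food, so the match is not particular to the genes that rose. GGGCGG is in 45% of 35116 RefSeq promoters of this length, whose median GC content is 58.7%. Of the other letters searched on both strands, CACGTG (7.26% of promoters), CATCTG (14.7%), CAGCTG (17.9%) and TATAAA (11.5%), none was in either printed window.

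PAQR8 was the most abundant progesterone receptor transcript per length in the uninduced lines, and it was far lower with doxycycline in both hairpin lines. In EV it was at 67.2, 65.1 and 61.9 CPM with DMSO and 62.1, 60.9 and 61.0 CPM with doxycycline. In sh4 the values were 63.8, 66.9 and 65.8 CPM with DMSO and 22.3, 20.7 and 20.8 CPM with doxycycline. In shAMB they were 65.7, 65.7 and 69.1 CPM and 15.3, 14.2 and 13.9 CPM. The doxycycline libraries of both hairpin lines lay far below all the others, while the EV groups overlapped. The fitted log2 fold changes were -0.08 in EV, -1.62 in sh4 (3.08-fold lower) and -2.21 in shAMB (4.61-fold lower).

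The tumours did not enter the choice by the culture values, and there PAQR8 was lower in the group labelled RUNX1T1 KO. Tumours on control food held 18.2, 15.9, 16.6 and 17.8 CPM and those on doxycycline food 6.82, 5.56, 4.81 and 4.81 CPM, with no overlap. The log2 fold change was -1.64 ± 0.146 (SE, adjusted p = 2.3e-05, 3.12-fold lower). This result was known when the genes were chosen and is not independent support. PAQR8 was at 17.1 ± 1.07 CPM in control tumours and 64.7 ± 2.67 CPM in EV with DMSO, values that come from separate normalizations and were not tested.

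**Figure D1:**
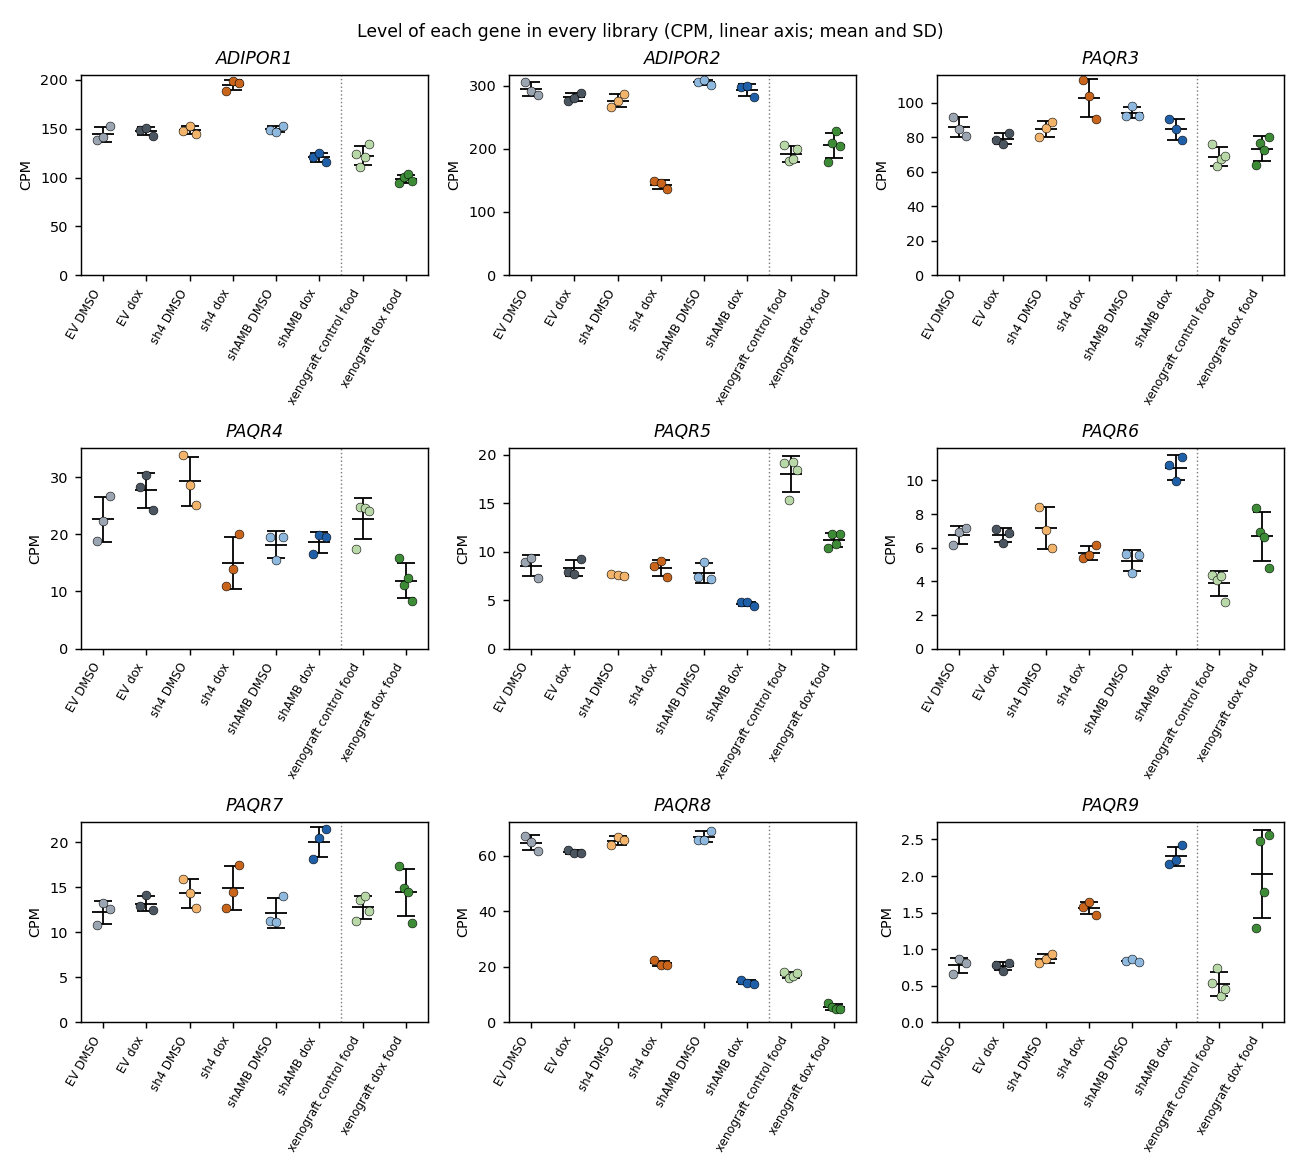
Level of each of the 9 genes in every library (CPM, linear axes from 0); points are libraries, with the group mean and SD, and the dotted line parts culture (3 libraries per group) from tumours (4 per group), which were normalized separately. PAQR8 lies at 20.7 to 22.3 CPM in sh4 and 13.9 to 15.3 CPM in shAMB with doxycycline, and ADIPOR2 at 136 to 149 CPM in sh4 with doxycycline.

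With PAQR8 set aside in culture, 0 of the other 8 genes passed the test in EV, where 0.0939% of all genes did. By DESeq2 0 of 8 passed too, and 0 of 8 at an unadjusted p under 0.05, where 879 of 14905 genes did. In sh4 6 of 8 passed, 3 higher and 3 lower, beside 40.9% of all genes (22.9% higher, the rest lower). In shAMB 5 of 8 passed, 3 higher and 2 lower, beside 66.0% of all genes (37.6% higher, 28.4% lower), a share close to the background. In the tumours 6 of 9 passed, 2 higher and 4 lower, beside 41.1% of all genes (21.2% higher, 19.9% lower). The 4 lower include PAQR8, whose tumour fall was known when the genes were chosen. ADIPOR1, PAQR6 and PAQR9 passed in both hairpin lines, PAQR9 in 1 direction and the others in opposite directions.

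Differences between the lines were tested directly. The doxycycline effect differed from EV for 5 of 8 members in sh4 (32.6% of all genes) and 5 of 8 in shAMB (45.5%). It differed between sh4 and shAMB for 8 of 8 (60.9%). These tests share libraries. Under DMSO alone, 0 of 8 differed between sh4 and EV (1.12% of all genes) and 0 of 8 between shAMB and EV (1.52%). By DESeq2 the counts were also 0 and 0. At an unadjusted p under 0.05, 1 of 8 differed between sh4 and EV, beside 4180 of the 14905 genes tested. Between shAMB and EV 1 of 8 did, beside 1639 of 14905. Without sh4 doxycycline replicate 3, the genes passing in sh4 against EV went from 4856 to 7557 while the members stayed at 5.

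**Figure D2:**
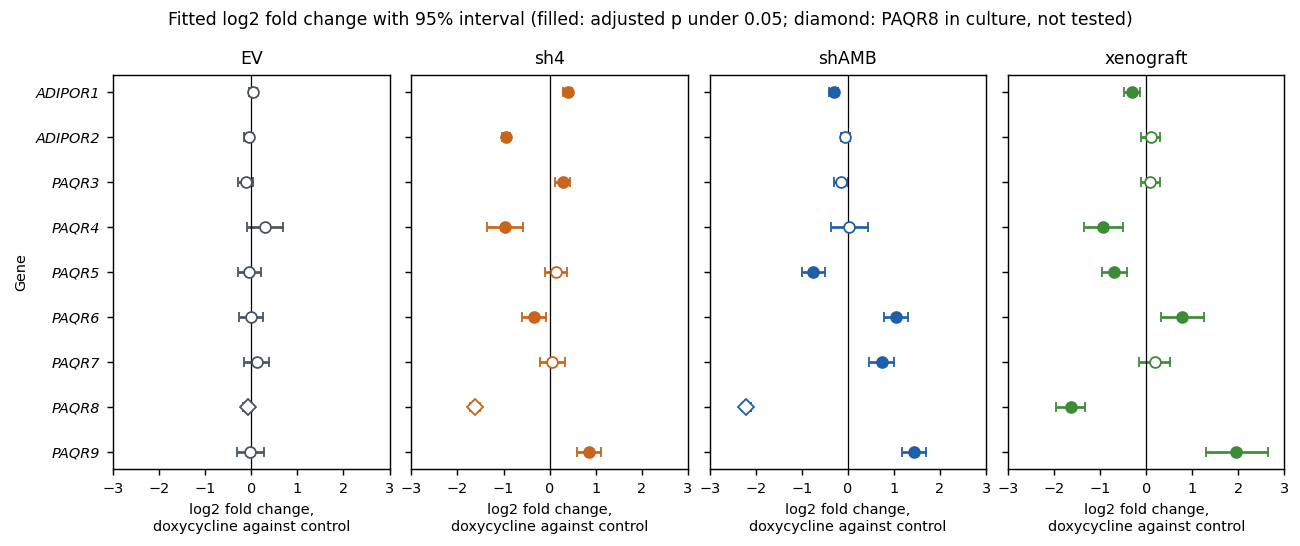
Fitted log2 fold change (x axis) of each gene for doxycycline against control in EV, sh4, shAMB and the tumours, with 95% intervals; filled points passed an adjusted p of 0.05, and diamonds are PAQR8 in culture, which was not tested. PAQR9 is at 0.85, 1.43 and 1.96 in sh4, shAMB and the tumours, and PAQR8 at -1.62, -2.21 and -1.64.

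Of the adiponectin receptors, ADIPOR2 fell in sh4 and ADIPOR1 moved in opposite directions in the hairpin lines. ADIPOR2 was at 266, 275 and 287 CPM in sh4 with DMSO and 149, 145 and 136 CPM with doxycycline. The groups did not overlap, and the log2 fold change was -0.94 ± 0.0436 (SE, adjusted p = 1.7e-10). In shAMB it was at 306, 308 and 300.4 CPM and 298, 299.6 and 282 CPM (-0.06 ± 0.0430, adjusted p = 0.268). DESeq2 called that small difference (-0.13, adjusted p = 0.034), and its sign turned once trends with GC content and length were removed (0.05). The sh4 and shAMB effects differed by -0.89 ± 0.0611 (adjusted p = 1.1e-08). EV held 294 ± 10.5 and 282 ± 6.34 CPM, and the tumours 192 ± 12.5 and 205 ± 20.2 CPM (0.10, 95% interval -0.11 to 0.30, adjusted p = 0.43).

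ADIPOR1 rose in sh4 from 148, 153 and 145 CPM to 189, 199 and 197 CPM (0.39 ± 0.0432, adjusted p = 2.9e-06). It fell in shAMB from 149, 147 and 153 CPM to 121, 125 and 116 CPM (-0.31 ± 0.0434, adjusted p = 1.3e-05). It fell likewise in the tumours, from 124, 111, 121 and 134 CPM to 94.6, 100.3, 104 and 96.0 CPM (-0.31 ± 0.0809, adjusted p = 0.0101). None of these groups overlapped in CPM, while EV held 144 ± 7.52 and 148 ± 4.00 CPM. The scale of the deposited TPM against CPM differed between tumour libraries. On doxycycline food, replicates 2 and 4 held 100.3 and 96.0 CPM of ADIPOR1 but 35.1 and 19.1 TPM. For ADIPOR2 the same replicates held 209.6 and 205 CPM but 36.8 and 20.3 TPM. In TPM, which is also scaled to gene length, the tumour groups of ADIPOR1 overlapped, and the part of the library scale in this was not tested. These groups were at 31.1 ± 8.66 TPM on control food and 25.6 ± 7.31 TPM on doxycycline food. With the replicate number as a block the tumour call was lost (-0.31, adjusted p = 0.0541). The sh4 and shAMB effects differed by 0.70 ± 0.0612 (adjusted p = 1.5e-07).

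Per length, both receptors were near equal in uninduced culture. The ADIPOR2 to ADIPOR1 ratio of CPM per kb was 1.06 ± 0.0901 in EV with DMSO and 0.989 ± 0.0462 with doxycycline (SD, n = 3). It went from 0.962 ± 0.0544 to 0.382 ± 0.0244 in sh4 and from 1.05 ± 0.0348 to 1.26 ± 0.0146 in shAMB, without overlap. In the tumours it went from 0.812 ± 0.0421 to 1.08 ± 0.0675 (n = 4), again without overlap. The 5 adipocyte markers summed to at most 0.179 CPM in culture, 0.233 to 0.569 CPM in control tumours and 0.934 to 1.73 CPM on doxycycline food. Only 1 of the 5 passed the filter on low counts in the tumours. FABP4, detected in the control tumours, was at 0 on doxycycline food. The part of these markers in the tumour ratio was not tested. The adiponectin gene ADIPOQ, named after its values were seen, had at most 1 count in any culture library.

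PAQR3, the Golgi anchor of SCAP, was higher in sh4 by a small margin. It was at 79.8, 85.4 and 88.7 CPM with DMSO and 113, 104 and 90.8 CPM with doxycycline, without overlap (0.28 ± 0.0753, adjusted p = 0.00759). Without sh4 DMSO replicate 1 the call was lost (0.22, adjusted p = 0.0662). In shAMB it was at 92.1, 97.8 and 92.3 CPM and 90.8, 84.6 and 78.4 CPM (-0.15 ± 0.0754, adjusted p = 0.0851), groups that did not overlap. DESeq2 called that fall (-0.23, adjusted p = 0.0246), and with GC and length trends removed the value was 0.03. EV held 85.7 ± 5.80 and 79.0 ± 3.19 CPM and the tumours 68.8 ± 5.38 and 73.3 ± 7.15 CPM (0.09, 95% interval -0.12 to 0.30, adjusted p = 0.47). BMP2K, which overlaps it, was at 19.2 ± 0.761 and 19.4 ± 0.934 CPM in sh4.

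PAQR4 was lower in sh4 and in the tumours on doxycycline food. In sh4 it went from 33.8, 28.7 and 25.2 CPM to 11.0, 14.0 and 20.0 CPM, without overlap (-0.97 ± 0.186, adjusted p = 6.0e-04). In the tumours it went from 17.4, 24.8, 24.6 and 24.1 CPM to 15.8, 11.1, 12.3 and 8.40 CPM (-0.93 ± 0.191, adjusted p = 0.00284). Those groups did not overlap either, and control tumour replicate 1 stood below the other 3. EV held 22.6 ± 3.93 and 27.7 ± 3.10 CPM and shAMB 18.2 ± 2.36 and 18.6 ± 1.84 CPM (0.03, adjusted p = 0.889).

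The PAQR4 transcript has 64.2% GC, the highest of the 9, and its shAMB value depended on the processing. With GC and length trends removed it was -1.07 (adjusted p = 1.4e-09) in shAMB, -0.68 (adjusted p = 9.8e-07) in sh4 and -1.26 (adjusted p = 9.0e-07) in the tumours. The sh4 minus shAMB difference turned from -1.0 to 0.39 (adjusted p = 0.00675). PKMYT1, a cell cycle kinase gene on the other strand, was at 10.1 ± 4.13 and 4.96 ± 2.81 CPM in sh4. It was at 3.52 ± 1.10 and 9.11 ± 2.08 CPM in shAMB and 4.46 ± 1.47 and 3.51 ± 2.11 CPM in the tumours. In every library the deposited PAQR4 and PKMYT1 counts added up to a whole number, such as 825.01 and 154.99 in EV with DMSO, replicate 1. Reads that fit both genes were thus divided between them by estimate. How far this division moved the PAQR4 values was not tested.

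**Figure D3:**
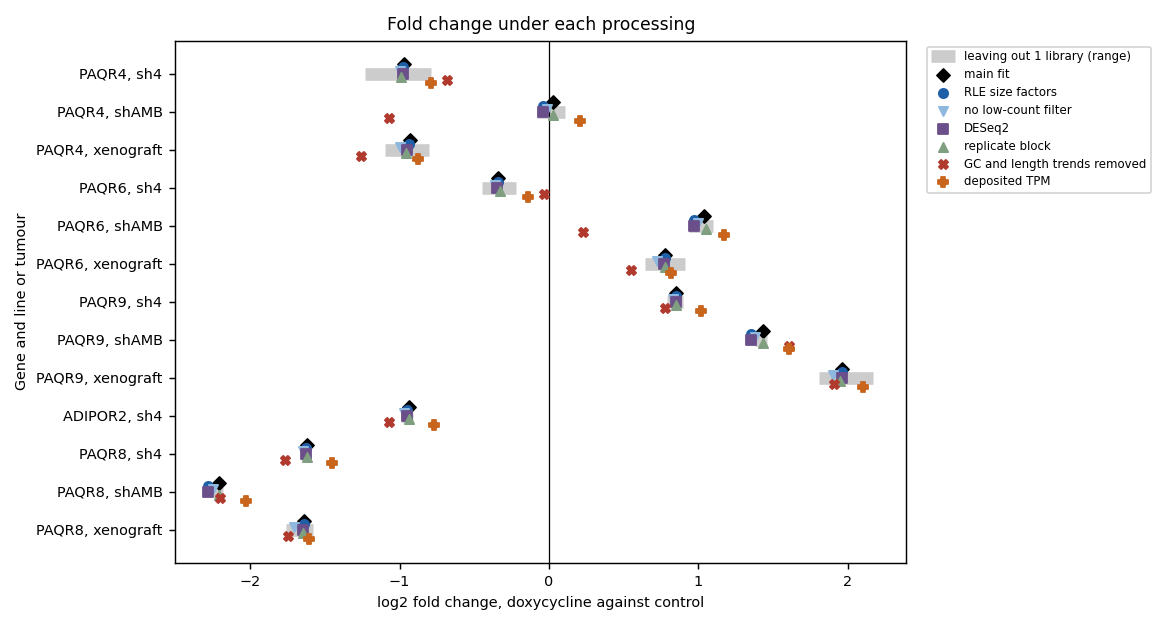
log2 fold change for doxycycline against control (x axis) of 13 pairs of gene and contrast (y axis) under each processing; symbols are settings and grey bars the range when 1 library is left out. With GC and length trends removed, PAQR4 in shAMB lies at -1.07 and PAQR6 in shAMB at 0.23.

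PAQR9 (mPR epsilon), the scarcest member with at most 141 counts in a library, rose in both hairpin lines and in the tumours. In sh4 it went from 0.807, 0.865 and 0.930 CPM to 1.58, 1.64 and 1.47 CPM (0.85 ± 0.123, adjusted p = 4.2e-05). In shAMB it went from 0.838, 0.858 and 0.829 CPM to 2.17, 2.22 and 2.42 CPM (1.43 ± 0.123, adjusted p = 6.9e-08). Doxycycline libraries lay above all DMSO libraries in both lines, and EV held 0.777 ± 0.104 and 0.765 ± 0.0557 CPM. Among the tumours it went from 0.534, 0.745, 0.358 and 0.452 CPM to 1.29, 2.48, 1.78 and 2.56 CPM, also without overlap (1.96 ± 0.307, adjusted p = 5.7e-04, 3.90-fold higher). The sh4 effect was below the shAMB effect by -0.58 ± 0.175 (adjusted p = 0.0266). That call was lost with DESeq2 (adjusted p = 0.177), with RLE size factors (0.0526) and without sh4 DMSO replicate 3, sh4 doxycycline replicate 3 or shAMB doxycycline replicate 3 (0.0599, 0.0583 and 0.0511). The antisense gene PAQR9-AS1 had at most 2 counts in any library.

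PAQR6 (mPR delta) rose in shAMB and the tumours. In shAMB it went from 5.62, 4.50 and 5.54 CPM to 10.9, 9.97 and 11.4 CPM (1.04 ± 0.123, adjusted p = 2.2e-06). In the tumours it went from 4.38, 4.06, 4.33 and 2.78 CPM to 8.33, 6.95, 6.65 and 4.81 CPM (0.78 ± 0.210, adjusted p = 0.0121). Neither contrast overlapped in CPM, and EV held 6.75 ± 0.544 and 6.75 ± 0.419 CPM. In the deposited TPM, whose scale against CPM differed between libraries, the tumour groups overlapped (1.20 ± 0.327 on control food and 2.12 ± 0.772 on doxycycline food). In sh4 the values 8.44, 7.06 and 6.0 CPM and 5.36, 5.57 and 6.14 CPM overlapped (-0.34 ± 0.122, adjusted p = 0.0377). The sh4 call was lost without DMSO replicate 1 or 2 (adjusted p = 0.19 and 0.0708) or doxycycline replicate 1 or 2 (0.116 and 0.101). The transcript has 61.6% GC, and with GC and length trends removed the value was -0.03 in sh4 (adjusted p = 0.878), 0.23 in shAMB (0.157) and 0.55 in the tumours (0.0393), so of these 3 calls only that of the tumours was kept. The shAMB effect minus that of EV was then 0.48 (adjusted p = 0.0486), also past the test.

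PAQR5 (mPR gamma) fell in shAMB and the tumours. In shAMB it went from 7.37, 8.99 and 7.14 CPM to 4.77, 4.77 and 4.41 CPM (-0.75 ± 0.117, adjusted p = 4.1e-05). In the tumours it went from 19.2, 15.3, 19.3 and 18.4 CPM to 10.4, 11.8, 10.8 and 11.8 CPM (-0.69 ± 0.119, adjusted p = 0.00105). Neither contrast overlapped in CPM, and EV held 8.55 ± 1.08 and 8.33 ± 0.837 CPM. In the deposited TPM, whose scale against CPM differed between libraries, the tumour groups overlapped (1.73 ± 0.506 on control food and 1.10 ± 0.328 on doxycycline food). In sh4 it was at 7.58 ± 0.111 and 8.34 ± 0.854 CPM (0.14, 95% interval -0.10 to 0.38, adjusted p = 0.349), and the hairpin lines differed by 0.89 ± 0.163 (adjusted p = 2.7e-04).

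PAQR7 (mPR alpha) rose in shAMB from 11.2, 11.1 and 14.0 CPM to 18.1, 20.5 and 21.4 CPM, without overlap (0.73 ± 0.128, adjusted p = 1.3e-04). With GC and length trends removed the rise was 0.32 (adjusted p = 5.6e-04). EV held 12.2 ± 1.25 and 13.2 ± 0.854 CPM, sh4 14.3 ± 1.61 and 14.9 ± 2.41 CPM (0.06, 95% interval -0.21 to 0.33, adjusted p = 0.748) and the tumours 12.8 ± 1.26 and 14.4 ± 2.58 CPM (0.18, 95% interval -0.15 to 0.51, adjusted p = 0.378). The hairpin lines differed by -0.67 ± 0.180 (adjusted p = 0.0048).

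Levels of different genes were set side by side as CPM per kb of the deposited gene length. In EV with DMSO the order was ADIPOR2 (74.2), ADIPOR1 (70.2), PAQR3 (22.9), PAQR8 (13.7), PAQR4 (9.83), PAQR7 (4.02), PAQR6 (3.95), PAQR5 (1.65) and PAQR9 (0.369). The libraries of ADIPOR2 and ADIPOR1 overlapped, as did those of PAQR7 and PAQR6, and the other neighbours did not. With doxycycline PAQR8 was at rank 6 in sh4 (4.49, overlapping PAQR7 at 4.93) and rank 7 in shAMB (3.06). It was at rank 6 in control tumours (3.62, overlapping PAQR7 at 4.23 and PAQR5 at 3.48) and rank 8 on doxycycline food (1.16, overlapping PAQR9 at 0.962). The deposited lengths of PAQR3 and PAQR9, 3739 and 2106 bases, were below the 9811 and 9090 exon bases of their reference transcripts. With the reference lengths, an alternative chosen after seeing the data, PAQR8 (13.7) stood above PAQR3 (8.74) in EV with DMSO, and the PAQR8 part of the 5 progesterone receptor transcripts there was 58.7%.

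The makeup of the 5 membrane progesterone receptor transcripts moved away from PAQR8. Its part of their summed CPM per kb was 57.8% ± 2.49 in EV with DMSO and 55.7% ± 0.213 with doxycycline (SD, n = 3). It went from 56.2% ± 3.24 to 29.8% ± 2.54 in sh4 and from 61.2% ± 0.987 to 17.1% ± 1.33 in shAMB. PAQR7 and PAQR6 then made up 36.9% ± 2.42 and 35.1% ± 1.68 in shAMB, and 32.5% ± 3.66 and 22.0% ± 0.493 in sh4. The summed level went from 24.6 ± 1.05 to 15.1 ± 0.733 CPM per kb in sh4 and from 23.1 ± 1.01 to 17.9 ± 0.634 in shAMB. In the tumours PAQR8 went from 26.2% ± 2.07 to 8.93% ± 0.779 (n = 4), with sums of 13.8 ± 0.588 and 13.0 ± 1.57 CPM per kb. The culture shares contain the values that chose the genes and are a description.

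**Figure D4:**
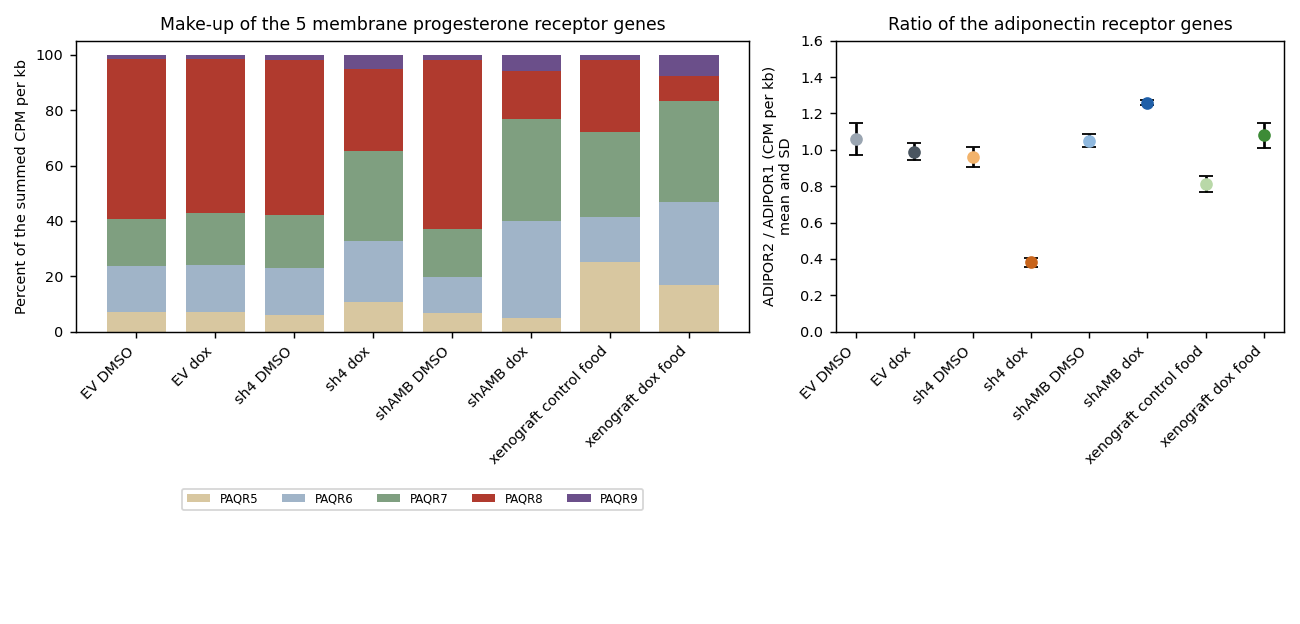
Left, percent of the summed CPM per kb of PAQR5 to PAQR9 made up by each gene (group means); right, ADIPOR2 to ADIPOR1 ratio of CPM per kb (mean and SD, 3 or 4 libraries per group). In shAMB the PAQR8 part goes from 61.2% to 17.1%, and in sh4 the ratio goes from 0.962 to 0.382.

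The genes that ran most like PAQR8 over the 18 culture libraries, of 12708 compared, were ICA1 (Pearson r = 0.994), LMO3 (0.993), EEF1A1 (0.991), ARHGAP19 (0.989) and PHF20 (0.987). The libraries fall into groups and share lines and treatments, so these are descriptions. ICA1 is a secretory vesicle protein gene, LMO3 a transcription co-factor gene studied in neuroblastoma and EEF1A1 a translation elongation factor gene with many near-identical copies. LMO3 went from 54.5 to 21.7 CPM in sh4 and from 59.3 to 14.5 CPM in shAMB. In the tumours the log2 fold changes of these 5 genes were -0.95, -1.50, -0.96, -1.36 and -0.52, all past the test (highest adjusted p = 4.2e-04). Of all genes, 41.1% passed there and 19.9% passed as lower. The 5 genes were picked for likeness to the culture values that chose PAQR8, so their tumour values are a description too. For the other members the nearest gene was RAB10 for ADIPOR2 (0.997), ARIH2 for ADIPOR1 (0.981), MARCH5 for PAQR3 (0.966), HNRNPUL2-BSCL2 for PAQR4 (0.978), RHOBTB1 for PAQR5 (0.964), AGAP6 for PAQR6 (0.976), ACTN1 for PAQR7 (0.969) and the survival gene BCL2 for PAQR9 (0.983).

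The pathways around the receptors were described with gene lists, whose counts stand beside 40.9% of all genes called in sh4, 66.0% in shAMB and 41.1% in the tumours. The members differing from EV are given with each list, beside 32.6% of all genes in sh4 and 45.5% in shAMB. In EV 0 genes of any list described here passed (edgeR; 0 by DESeq2, and 0 to 2 per list at an unadjusted p under 0.05). Over all genes tested the log2 fold changes had a median of -0.00 in sh4, 0.10 in shAMB and 0.02 in the tumours, and -0.03, -0.04 and -0.09 with GC and length trends removed. That step also turned the balance of calls, from 3410 higher and 2681 lower to 3722 and 4754 in sh4, from 5602 and 4238 to 4778 and 5958 in shAMB, and from 3382 and 3173 to 3426 and 5358 in the tumours. MMD, the other family gene tested, was lower in sh4 (56.3 to 36.7 CPM, -0.62, adjusted p = 8.1e-06), shAMB (64.8 to 47.9 CPM, -0.44, 1.1e-04) and the tumours (51.7 to 39.3 CPM, -0.40, 0.0129). Against EV its effect was -0.60 in sh4 (adjusted p = 5.1e-04) and -0.42 in shAMB (0.00444). MMD2 had at most 6 counts. The distantly related CREST family had 3 of 5 called in sh4 (2 higher, 1 lower, median -0.44), 2 of 5 in shAMB (2 higher, 0 lower, median 0.23) and 2 of 6 in the tumours (1 higher, 1 lower, median 0.16). Against EV, 3 of 5 differed in sh4 and 0 of 5 in shAMB (edgeR; 1 at an unadjusted p under 0.05 and 0 by DESeq2). Its alkaline ceramidase gene ACER2 was at 0.34 in sh4 (adjusted p = 0.0165) and -0.45 in the tumours (0.0214).

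On the adiponectin side, ligands and adaptors had 3 of 6 called in sh4 (3 higher, 0 lower, median 0.29), 2 of 6 in shAMB (0 higher, 2 lower, median -0.19) and 4 of 7 in the tumours (2 higher, 2 lower, median -0.45). Against EV, 3 of 6 differed in sh4 and 2 of 6 in shAMB. APPL2, an adaptor of the receptors, had the signs of ADIPOR1. It rose in sh4 from 35.8 to 46.7 CPM (0.38, adjusted p = 9.8e-06) and fell in shAMB from 37.7 to 27.9 CPM (-0.43, 1.2e-06) and in the tumours from 26.1 to 18.8 CPM (-0.47, 0.00301). AMPK and PPARA genes had 9 of 19 called in sh4 (3 higher, 6 lower, median -0.11), 13 of 19 in shAMB (8 higher, 5 lower, median 0.09) and 11 of 19 in the tumours (6 higher, 5 lower, median 0.05). Against EV, 8 of 19 differed in sh4 and 10 of 19 in shAMB. CPT1A, which passes fatty acids into mitochondria, fell in sh4 from 85.9 to 18.2 CPM (-2.24, adjusted p = 5.3e-12) and rose in shAMB from 69.2 to 83.6 CPM (0.27, 0.003). The AMPK subunit gene PRKAG1 fell in shAMB (-0.87, adjusted p = 4.2e-09) and the tumours (-0.45, 0.00584).

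Among lipid genes, ceramide turnover had 11 of 23 called in sh4 (9 higher, 2 lower, median 0.22), 11 of 23 in shAMB (5 higher, 6 lower, median 0.03) and 6 of 23 in the tumours (1 higher, 5 lower, median -0.02). Against EV, 11 of 23 differed in sh4 and 7 of 23 in shAMB. The sphingosine-1-phosphate receptor gene S1PR1 fell in shAMB from 20.0 to 9.47 CPM (-1.08, adjusted p = 1.1e-09) and in the tumours from 10.4 to 2.10 CPM (-2.31, 9.8e-06). Membrane fluidity genes had 10 of 16 called in sh4 (5 higher, 5 lower, median 0.05), 14 of 16 in shAMB (4 higher, 10 lower, median -0.39) and 10 of 16 in the tumours (1 higher, 9 lower, median -0.37). Against EV, 9 of 16 differed in sh4 and 12 of 16 in shAMB. SCD, which makes monounsaturated fatty acids, fell in shAMB from 1185 to 440.4 CPM (-1.43, adjusted p = 1.9e-13) and in the tumours from 916 to 371 CPM (-1.31, 7.4e-06). ACSL4, which activates polyunsaturated fatty acids, rose in sh4 (0.73, adjusted p = 4.0e-07), shAMB (0.76, 9.9e-08) and the tumours (0.99, 1.0e-04).

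Other progesterone-binding genes had 3 of 7 called in sh4 (0 higher, 3 lower, median -0.25), 4 of 7 in shAMB (0 higher, 4 lower, median -0.27) and 5 of 8 in the tumours (1 higher, 4 lower, median -0.32). Against EV, 2 of 7 differed in sh4 and 4 of 7 in shAMB. The mineralocorticoid receptor gene NR3C2 was lower in sh4 (-0.51, adjusted p = 6.6e-05), shAMB (-1.52, 2.6e-10) and the tumours (-0.73, 0.00752). In EV it was at -0.35 (adjusted p = 0.22), and the effect minus that of EV was -0.16 in sh4 (adjusted p = 0.272) and -1.17 in shAMB (5.3e-07), of which only the shAMB difference passed. PGR, the nuclear progesterone receptor gene, had at most 1 count in a culture library and went from 0.221 ± 0.144 to 2.66 ± 1.08 CPM in the tumours (3.57 ± 0.507, adjusted p = 3.1e-04). Genes of progestogen and neurosteroid synthesis had 6 of 15 called in sh4 (1 higher, 5 lower, median -0.43), 11 of 15 in shAMB (5 higher, 6 lower, median 0.17) and 4 of 15 in the tumours (1 higher, 3 lower, median 0.09). Against EV, 5 of 15 differed in sh4 and 7 of 15 in shAMB. The progestogen-reducing enzyme genes AKR1C1, AKR1C2 and AKR1C3 fell in sh4 (-2.15, -1.73 and -1.51; adjusted p = 1.4e-10, 7.6e-09 and 1.1e-06), and as near-identical genes they may share reads. They also fell in shAMB (-0.65, -0.71 and -0.44, adjusted p = 1.8e-05, 3.3e-05 and 0.0179). In the tumours AKR1C2 was higher (0.65, adjusted p = 0.036), and AKR1C1 and AKR1C3 were at 0.51 and 0.60 (adjusted p = 0.0553 and 0.264).

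Inhibitory G protein and cAMP genes had 11 of 22 called in sh4 (4 higher, 7 lower, median -0.00), 16 of 22 in shAMB (11 higher, 5 lower, median 0.24) and 7 of 22 in the tumours (5 higher, 2 lower, median -0.04). Against EV, 8 of 22 differed in sh4 and 8 of 22 in shAMB. PRKACA, a catalytic subunit of protein kinase A, fell in sh4 from 70.5 to 30.0 CPM (-1.23, adjusted p = 1.7e-07). It did not pass in shAMB (0.14, adjusted p = 0.23) or the tumours (-0.09, 0.688). The phosphodiesterase gene PDE4D rose in shAMB (0.86, adjusted p = 7.9e-09) and the tumours (1.05, 3.3e-04), and by less in sh4 (0.18, 0.024). SCAP and SREBP transport genes had 4 of 11 called in sh4 (3 higher, 1 lower, median 0.05), 6 of 11 in shAMB (2 higher, 4 lower, median -0.09) and 5 of 11 in the tumours (1 higher, 4 lower, median -0.18). Against EV, 2 of 11 differed in sh4 and 5 of 11 in shAMB. INSIG1, a partner of SCAP, rose in sh4 from 69.2 to 168 CPM (1.28, adjusted p = 2.8e-10) and by less in shAMB (0.24, 0.00277). The SREBP protease gene MBTPS1 rose in sh4 (0.18, adjusted p = 0.00374) and fell in shAMB (-1.16, 8.1e-12) and the tumours (-1.28, 7.1e-06).

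**Figure D5:**
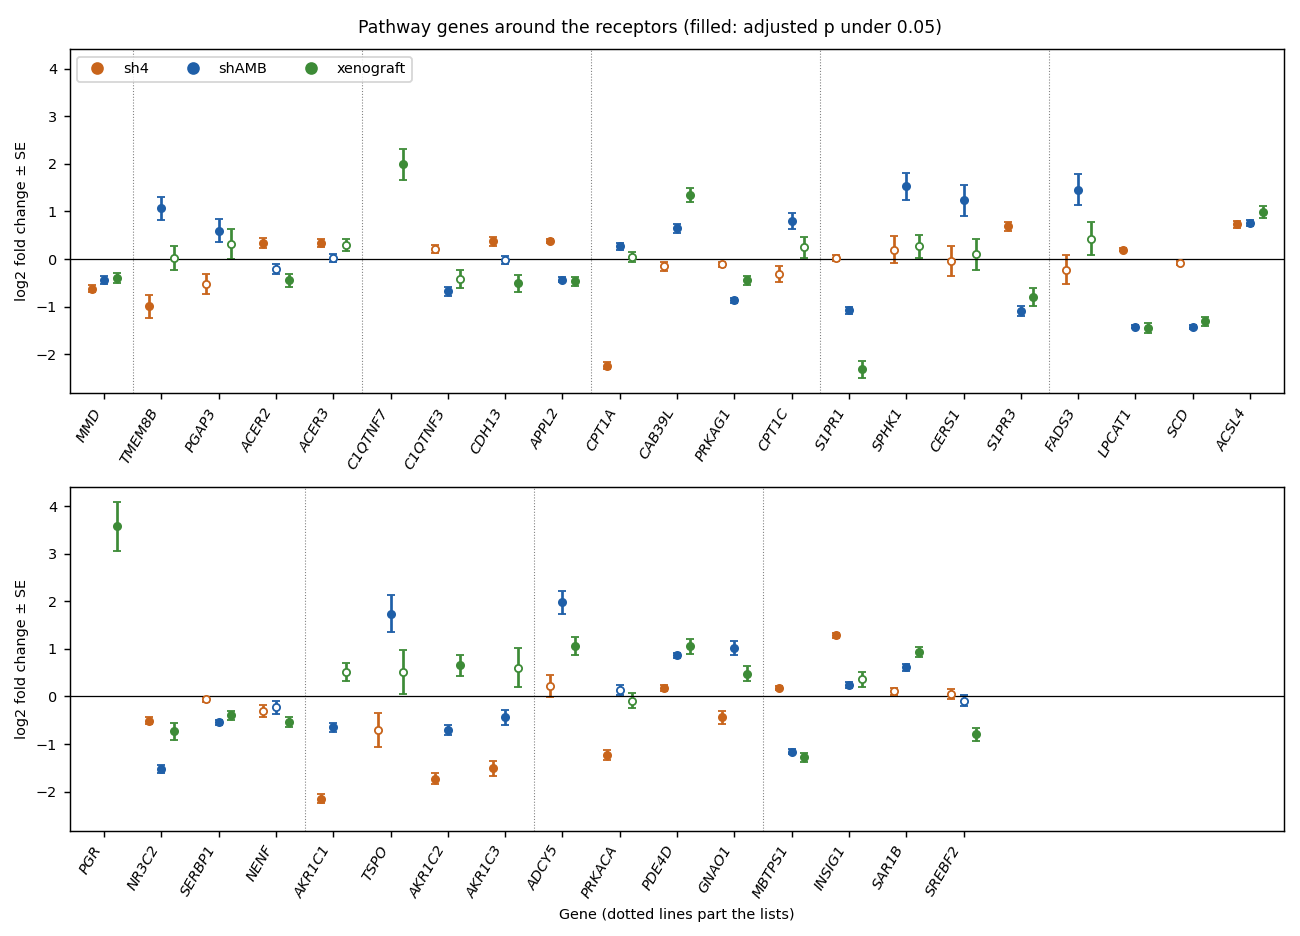
log2 fold change for doxycycline against control (with SE) in sh4, shAMB and the tumours for the genes named by 1 rule from the pathway lists described here; filled points passed an adjusted p of 0.05, dotted lines part the lists, and a missing point was not tested. CPT1A is at -2.24 in sh4, SCD at -1.43 in shAMB and PGR at 3.57 in the tumours.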

How the data were processed

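RNA was sequenced in 18 libraries of 3 cultured KELLY lines and in 8 of xenografts. The submitters' processing notes name STAR, SAMtools, RSEM and the build hg38 (versions for these libraries not given in the sources used here). The authors deposited expected counts per gene (estimated counts, whole in 91 to 91.8% of values), TPM and gene lengths. Removal of mouse reads and the strand setting are not given in the sources used here. The Neg columns were taken for DMSO and the Pos columns for doxycycline, and 0 columns of sample values were left unused.

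Expected counts were rounded and tested with edgeR 4.0.16 in R 4.3.3 (filterByExpr, TMM factors of 0.974 to 1.07 in culture and 0.936 to 1.09 in tumours, quasi-likelihood F test, Benjamini-Hochberg adjustment over 14905 or 15960 genes). Culture shared 1 fit and tumours had their own. Alternatives were DESeq2 1.42.0, RLE factors, no filter, a replicate block, removal of GC and length trends and a test against a log2 change of 0.25. Further ones were leaving out each library and the deposited TPM, as the log2 ratio of group means without a pseudocount. Lengths of the reference transcripts were an alternative chosen after seeing the data. The scripts were tested on simulated data.

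The members and gene lists were chosen with earlier results of these data known. From each pathway list up to 4 genes were eligible to be named, with a mean of at least 1 CPM and an adjusted p under 0.05 in sh4, shAMB or the tumours, ordered by size of change. For likeness, the 5 genes with the highest Pearson r of log2 CPM (prior count 2) to PAQR8 and 1 for each other member were taken. The results of 1 pathway list are not reported here.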

Additional observations from a re-analysis of the deposited data

Results flagged for a closer look

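In 1 of 18 groups of 4 tumours tested for a library far from the rest, PAQR4 on control food, replicate 1 stood at 17.4 CPM and the others at 24.1 to 24.8 CPM, a gap of 0.901 of the range; chance gives about 1 in 20 such groups.

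Of 24 tests of a doxycycline effect between lines, 18 passed (edgeR). For sh4 minus EV the log2 differences were 0.40 for PAQR3, -1.26 for PAQR4, 0.87 for PAQR9, 0.36 for ADIPOR1 and -0.88 for ADIPOR2. For shAMB minus EV they were -0.71 for PAQR5, 1.04 for PAQR6, 0.61 for PAQR7, 1.45 for PAQR9 and -0.35 for ADIPOR1. For sh4 minus shAMB they were 0.43 for PAQR3, -1.0 for PAQR4, 0.89 for PAQR5, -1.38 for PAQR6, -0.67 for PAQR7, -0.58 for PAQR9, 0.70 for ADIPOR1 and -0.89 for ADIPOR2. These tests share libraries.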

How the results depend on the processing

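In fits across all genes, single member values kept their direction and their side of the threshold in 886 cases, reversed in 57, lost a call in 14 and gained one in 8. On the deposited TPM and for PAQR8 in culture, which were judged by size alone, values moved by less than the replicate SD in 117 cases, by more in 21 and changed sign in 4. Of those 21, 13 were on TPM, and the rest were PAQR8 in culture (3 with DESeq2, 3 with GC and length trends removed, 2 with RLE factors). On TPM PAQR8 was at -1.45 in sh4 and -2.03 in shAMB, in place of -1.62 and -2.21. Without 1 library it was at -1.66 to -1.6 in sh4 and -2.25 to -2.18 in shAMB. Member counts stayed within 1.5 times in 126 cases and left that range in 2. The causes were not tested. Tested against a log2 change of 0.25, members passing in sh4 minus EV were 3 in place of 5, and with GC and length trends removed 1 in place of 0 differed between sh4 and EV with DMSO (PAQR3, 0.10). With those trends removed, signs turned for PAQR3 in shAMB (0.03), shAMB minus EV (0.05) and sh4 against EV with DMSO (-0.02 to 0.10), PAQR4 in shAMB (-1.07), sh4 minus shAMB (0.39) and sh4 against EV with DMSO (-0.15), PAQR5 in sh4 (-0.02) and sh4 minus EV (-0.02), PAQR6 in EV (-0.25), sh4 minus EV (0.22) and sh4 against EV with DMSO (-0.39), PAQR7 in sh4 minus EV (0.06) and shAMB against EV with DMSO (0.05), PAQR9 in EV (0.06), and ADIPOR2 in shAMB (0.05) and shAMB against EV with DMSO (-0.02). With RLE factors, and likewise with DESeq2, they turned for PAQR4 in shAMB (-0.04), PAQR6 in EV (-0.02), PAQR7 in shAMB against EV with DMSO (0.00) and ADIPOR2 in shAMB minus EV (-0.04 and -0.05). Without a filter they turned for PAQR4 in shAMB (-0.01) and ADIPOR2 in shAMB minus EV (-0.04). On deposited TPM they turned for PAQR3 in shAMB (0.02), PAQR6 in EV (-0.05), ADIPOR1 in EV (-0.01) and ADIPOR2 in shAMB (0.12).

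Leaving out 1 library, values spanned 0 for ADIPOR2 in shAMB minus EV (-0.02 to 0.03), PAQR3 in sh4 against EV with DMSO (-0.06 to 0.03) and shAMB minus EV (-0.09 to 0.02), PAQR4 in shAMB (-0.08 to 0.11), PAQR5 in EV (-0.14 to 0.03), PAQR6 in EV (-0.06 to 0.05) and sh4 against EV with DMSO (-0.05 to 0.20), PAQR7 in sh4 (-0.07 to 0.16), sh4 minus EV (-0.19 to 0.04) and shAMB against EV with DMSO (-0.12 to 0.05), and PAQR9 in EV (-0.13 to 0.06). Members passing were then 4 to 6 in sh4, 5 to 6 in sh4 minus EV, 7 to 8 in sh4 minus shAMB, 5 to 6 in shAMB and 6 in the tumours. Over all genes, counts that moved by over 1.5 times were those with GC and length trends removed (EV 14 to 56, sh4 against EV with DMSO 167 to 913, shAMB against EV with DMSO 227 to 1029), with DESeq2 (sh4 against EV with DMSO, 348), against a log2 change of 0.25 (EV 6, sh4 2799, sh4 minus EV 2317, shAMB minus EV 4508, sh4 against EV with DMSO 45, shAMB against EV with DMSO 53) and without 1 library (EV 7 to 14, sh4 minus EV 3753 to 7557, sh4 against EV with DMSO 75 to 269, shAMB against EV with DMSO 125 to 188).

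Deviations of samples with the same replicate number were correlated at -0.943 to 0.459. Only shAMB replicate 3 was most like the sample of its own number. These values do not settle whether such samples shared a batch, and the main fit treated them as unpaired. With the replicate number as a block, the genes passing were 5974 in sh4, 9756 in shAMB and 4929 in place of 6555 in the tumours, with 5 in place of 6 members there, and PAQR6 in EV was at -0.00. Depth limits PAQR9 most, with at most 141 counts in a library.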
